A study of Homo sapiens with 4 samples.

Results

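The genes described here are 8 transcription factors that define the liver cell, HNF4A, FOXA1, FOXA2, FOXA3, CEBPA, ONECUT1, NR5A2 and PROX1, taken by their symbols from a count table in which 59652 genes could be used, and all 8 were found. The study asked how glucose concentration alters the RNA of hepatocellular carcinoma cells. Huh7 and PLC, established human lines of this tumour that the labels call wild type, were grown with 10% fetal bovine serum and were given 5 mM glucose (low glucose) or 25 mM glucose (high glucose) for 48 h, and total RNA was sequenced after removal of ribosomal RNA. Each line and concentration had 1 library, so the 4 libraries include no replicate cultures, each line was a model of 1 tumour, and a difference between lines cannot be told apart from a difference between these cultures. The Huh7 libraries held 21376239 (5 mM) and 30085303 (25 mM) counted reads, the PLC libraries 30279716 and 16049686, and 11271 to 11447 protein-coding genes were above 0.5 FPKM, the read count scaled to gene length and to the total of the library.

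Hepatocytes keep their identity through a small set of transcription factors that bind each other's promoters as well as those of plasma protein, lipid and bile acid genes. The FOXA proteins open closed chromatin at liver enhancers, CEBPA drives the mature metabolic programme, and the nuclear receptors HNF4A and NR5A2 with ONECUT1 and PROX1 act at overlapping sets of sites in the embryonic and adult liver. Liver tumours and the lines grown from them often keep part of this set and lose the rest.

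Of the hepatocyte markers set for checking the labels, ALB, AFP and SERPINA1 were present in both lines, at different levels. ALB, the main plasma protein, was at 2017 and 2039 FPKM in Huh7 cells and at 52.4 and 72.3 FPKM in PLC cells (5 and 25 mM). AFP, the fetal and tumour counterpart of albumin, was at 1256 and 1434 FPKM in Huh7 and 306 and 1011 FPKM in PLC cells. SERPINA1, which encodes alpha-1 antitrypsin, was at 235 and 261 FPKM in Huh7 and 22.1 and 51.8 FPKM in PLC cells. All 3 were higher in Huh7 cells (edgeR, adjusted p = 2.24e-09, 0.00187 and 1.03e-06). TTR, also a hepatocyte marker, had 4 and 0 reads in PLC cells, so the label of a hepatocyte-derived line holds for PLC through albumin, AFP and SERPINA1 but not through every marker. Of the rest of the set, AHSG was at 0.373 and 0.253 FPKM and APOA1 at 0.783 and 2.96 FPKM in PLC cells. APOA2 was at 3.08 and 17.1 FPKM there, and TF at 9.19 and 11.1 FPKM. Of the other cell types, the T cell gene CD3E and the endothelial gene KDR were at 0 reads in every library, and the leukocyte gene PTPRC had at most 5 reads. LYZ of the leukocyte list was read in both lines, at 33.2 and 35.0 FPKM in Huh7 and 3.54 and 10.8 FPKM in PLC cells, and PECAM1 of the endothelial list was at 2.37 and 2.55 against 0.115 and 0.29 FPKM.

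The start regions of CEBPA and HNF4A and of LINC00261, a long non-coding RNA beside FOXA2, are shown because the lines differ most at CEBPA and FOXA2, while HNF4A has the smallest log2 difference in the edgeR fit of all 4 libraries. Each line gives the 250 bases before the start site in RefSeq on GRCh38.p14, 5′ to 3′ on the strand of the gene, at chr19:33302535-33302784 (minus strand) for CEBPA, chr20:44355449-44355698 and chr20:44400989-44401238 (plus strand) for the distal and the proximal start of HNF4A, and chr20:22578643-22578892 (minus strand) for LINC00261. Capitals mark matches, on either strand, to the TATA box (TATAAA), the forkhead letters bound by FOXA proteins (TGTTTAC or TGTTTGC), the CEBP letters TTGCNNAA and the ONECUT letters ATCAAT.
CEBPA: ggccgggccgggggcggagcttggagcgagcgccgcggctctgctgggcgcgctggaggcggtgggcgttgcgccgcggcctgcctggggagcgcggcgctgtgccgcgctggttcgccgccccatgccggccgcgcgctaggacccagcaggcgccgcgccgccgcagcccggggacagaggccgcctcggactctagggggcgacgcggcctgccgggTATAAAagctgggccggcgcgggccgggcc
HNF4A distal start: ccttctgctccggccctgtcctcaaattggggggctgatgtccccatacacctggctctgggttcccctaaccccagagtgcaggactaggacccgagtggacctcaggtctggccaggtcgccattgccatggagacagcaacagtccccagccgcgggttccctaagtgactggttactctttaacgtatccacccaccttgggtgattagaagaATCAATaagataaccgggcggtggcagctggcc
HNF4A proximal start: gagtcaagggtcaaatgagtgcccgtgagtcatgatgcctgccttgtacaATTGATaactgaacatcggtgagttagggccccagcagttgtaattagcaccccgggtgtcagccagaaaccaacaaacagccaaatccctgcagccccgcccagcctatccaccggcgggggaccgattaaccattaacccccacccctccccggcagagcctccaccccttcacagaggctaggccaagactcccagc
LINC00261: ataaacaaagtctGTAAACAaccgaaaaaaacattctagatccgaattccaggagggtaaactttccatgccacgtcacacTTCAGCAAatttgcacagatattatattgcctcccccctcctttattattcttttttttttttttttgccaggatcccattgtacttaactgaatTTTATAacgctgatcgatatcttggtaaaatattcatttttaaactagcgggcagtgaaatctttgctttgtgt

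CEBPA had a TATA box 30 to 25 bases before its start and was 81.2% G or C, against a median of 58% over the 35114 start regions of this length. The distal HNF4A start had the ONECUT letters 33 to 28 bases upstream, and the proximal start had them at 200 to 195 bases, on the opposite strand. LINC00261 held a forkhead match, a CEBP match and a TATA match, in a region of 34.8% G or C. These letters are found in many start regions, TATAAA in 10.7%, TTGCNNAA in 9.05%, ATCAAT in 5.58%, TGTTTGC in 3.23% and TGTTTAC in 2.98%, and a match describes the sequence and is not evidence of binding. Among the other members with a start region in the RefSeq table, FOXA1 held TGTTTGC on the opposite strand, FOXA3 held a TATA box 30 to 25 bases upstream, 1 of the NR5A2 starts held the forkhead letters TGTTTAC and the other a TATA match, and ONECUT1 held no match. No member's window held the HNF4 letters CAAAGTCCA or CAAAGGTCA or the NR5A letters CAAGGTCA or CAAGGCCA, which occur in 0.325%, 0.339%, 1.14% and 1.38% of all windows.

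All 8 members were expressed in Huh7 cells, at the 82.2 to 98.2 percentiles of protein-coding genes by FPKM. In PLC cells 6 of them were at the 74.4 to 95.1 percentiles, CEBPA was at the 60.0 and 56.0 percentiles (5 and 25 mM), and FOXA2 was below 0.5 FPKM in both libraries. In Huh7 cells the order by FPKM was CEBPA, PROX1, FOXA2, ONECUT1, FOXA1, HNF4A, FOXA3 and NR5A2 at both concentrations. The neighbours PROX1 and FOXA2 at 5 mM, and ONECUT1 and FOXA1 at both concentrations, had overlapping 95% counting intervals. In PLC cells HNF4A was first, and FOXA3, CEBPA and FOXA2 were the last at both concentrations. The middle of the PLC order was ONECUT1, NR5A2, PROX1 and FOXA1 at 5 mM, where the intervals of NR5A2 and PROX1 overlapped, and FOXA1, ONECUT1, PROX1 and NR5A2 at 25 mM. Summed over the 8 genes, the level was 286 and 291 FPKM in Huh7 and 131 and 145 FPKM in PLC cells.

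**Figure D1:**
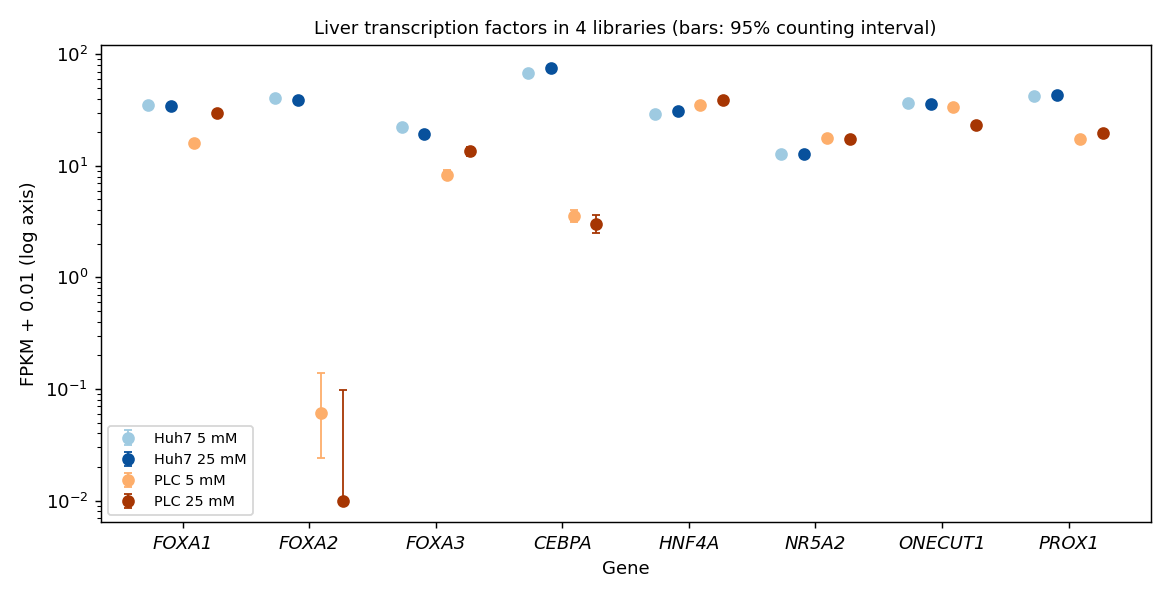
FPKM plus 0.01 on a log axis (y) of the 8 transcription factors (x) in the 4 libraries, with points for each library and bars for the exact Poisson 95% interval of the reads, which covers counting error only. FOXA2 at 4 and 0 reads and CEBPA at 3.54 and 3.02 FPKM set the PLC libraries apart from the Huh7 libraries, while HNF4A lies between 29.0 and 38.5 FPKM in all 4.

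In the comparison of the lines, 5 of 8 members were called higher in Huh7 cells and none was called lower. The test was the quasi-likelihood test of edgeR on the counts of all 4 libraries with glucose as a block. Benjamini-Hochberg adjustment was over 23217 genes, of which 21.8% were called higher in Huh7 cells and 21.1% lower (adjusted p under 0.05). Among protein-coding genes tested 24.8% were called higher and 25.2% lower. The median log2 difference of the members was 0.82, against 0.03 for all genes tested. The test has 1 residual degree of freedom, and its p-values rest on how far the glucose difference departs between the lines, not on replicate cultures.

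FOXA2, which opens liver and gut enhancers in the endoderm, had the widest gap. It was counted with 2237 and 3022 reads in Huh7 at 5 and 25 mM, or 40.2 and 38.6 FPKM, and with 4 and 0 reads in PLC cells, so the lines did not overlap and the gene was near absent from the PLC libraries. At 5 mM the FPKM in Huh7 was 792 times that in PLC with nothing added (267 times with 0.1 added to both, 39.2 times with 1 added), with an exact binomial 95% interval of 309 to 2910 that, like all intervals here, covers counting error only. At 25 mM it was at least 537-fold higher, against a floor of 3 reads in the PLC library. The difference passed the test (edgeR, adjusted p = 5.63e-09). FOXA2 lies at chr20:22581005-22585455 on the minus strand of hg38, the build of the table.

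LINC00261, which starts 2363 bases beyond the end of FOXA2 on the same strand, showed the same gap. Huh7 cells gave 5510 and 9206 reads of it, or 46.4 and 55.1 FPKM, and both PLC libraries gave 0. It was at least 2602-fold higher in Huh7 at 5 mM and at least 1637-fold higher at 25 mM (edgeR, adjusted p = 2.24e-09). Genes farther away were read in PLC cells. NXT1, 765.3 kb from FOXA2, was at 13.7, 16.3, 23.4 and 16.0 FPKM in Huh7 at 5 and 25 mM and PLC at 5 and 25 mM. GZF1 at 776.7 kb was at 11.1, 9.32, 12.1 and 5.28 FPKM in the same order. THBD, the thrombomodulin gene at 460.2 kb, had 0 reads in both Huh7 libraries and 140 and 6 reads in PLC cells. These neighbours were chosen by position after their values were seen.

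**Figure D2:**
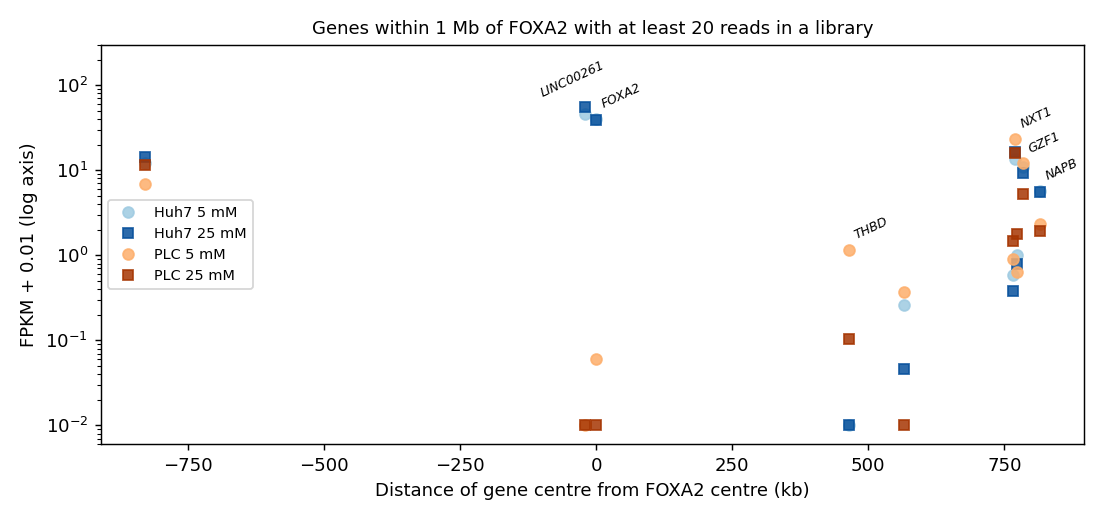
FPKM plus 0.01 on a log axis (y) of genes within 1 Mb of FOXA2 that had at least 20 reads in a library, against the distance of each gene's centre from that of FOXA2 in kb (x), with circles for 5 mM and squares for 25 mM. FOXA2 and LINC00261 are at 38.6 to 55.1 FPKM in Huh7 and at 0 to 4 reads in PLC cells, while NXT1 and GZF1 have reads in both lines.

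FOXA1 and FOXA3, the other FOXA genes, were present in both lines and lower in PLC. FOXA1, at chr14:37589552-37596059, was counted with 3279 and 4563 reads in Huh7 and with 2117 and 2087 in PLC. This was 34.8 and 34.4 FPKM in Huh7 against 15.8 and 29.5 FPKM in PLC, so the PLC library at 25 mM came close to the Huh7 libraries. The log2 difference was 0.67 ± 0.25 (SE, 2 libraries per line, edgeR, adjusted p = 0.0415). Without the glucose block it was 0.62 and no longer past the threshold (edgeR, adjusted p = 0.131). The adjusted p was 0.0845 by DESeq2 and 0.0341 by limma-voom. Fits with 1 library left out also had no glucose block, and 1 line then had 1 library. The log2 difference was then 0.29 without the PLC library at 5 mM. Without the Huh7 library at 5 or 25 mM it was 0.61 or 0.65. Over 10 alternatives in edgeR, DESeq2 or limma-voom, these fits among them, it ran from 0.29 to 1.03. FOXA3, at chr19:45863989-45873797, had 1009 and 1241 reads in Huh7 and 537 and 462 reads in PLC cells, which is 22.2 and 19.4 against 8.34 and 13.5 FPKM. Its log2 difference was 0.96 ± 0.28 (SE, edgeR, adjusted p = 0.0133), and 0.94 without the glucose block (edgeR, adjusted p = 0.0366). With 1 library left out as well, it ran from 0.68 to 1.22. Such fits leave 1 line with 1 library and cannot show whether the call holds. In Huh7 cells FOXA1, FOXA2 and FOXA3 made up 35.8%, 41.4% and 22.9% of the FOXA level at 5 mM and 37.2%, 41.8% and 21.0% at 25 mM, and in PLC cells FOXA1 and FOXA3 made up 65.4% and 34.4% at 5 mM and 68.5% and 31.5% at 25 mM.

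CEBPA, which halts growth and switches on metabolic genes in the mature hepatocyte, was the most abundant member in Huh7 and the next to last in PLC cells. Its reads numbered 3807 and 5940 in Huh7 and 279 and 126 in PLC. This was 68.5 and 75.9 FPKM against 3.54 and 3.02 FPKM, without overlap. In bulk RNA, fewer cells with the transcript and less of it per cell cannot be told apart. The log2 difference was 4.45 ± 0.27 (SE, edgeR, adjusted p = 3.39e-08), and it lay between 4.25 and 4.64 over 10 alternatives. CEBPA lies at chr19:33299934-33302534 on the minus strand. It shares 659 and 482 exon bases with a pair of genes on the opposite strand, both at 0 reads in every library.

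CEBPA-DT, the transcript that starts 323 bases from CEBPA in the other direction, was higher in Huh7 cells by a smaller amount. It had 249 and 413 reads in Huh7 and 89 and 110 reads in PLC cells, and its log2 difference was 1.48 ± 0.36 (SE, edgeR, adjusted p = 0.00455). CEBPG, 71.2 kb from CEBPA, was at 59.4 and 33.7 FPKM in Huh7 and 63.0 and 22.1 FPKM in PLC cells, and did not pass the test between the lines (edgeR, log2 difference 0.25 ± 0.23, SE, adjusted p = 0.417).

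Of the other CEBP genes tested, 1 was higher in PLC cells, and CEBPE had 0 reads in every library. CEBPD, an acute-phase and stress factor, had 50 and 40 reads in Huh7 and 905 and 733 reads in PLC cells, a log2 difference of -4.38 ± 0.39 (SE, edgeR, adjusted p = 1.16e-06). CEBPB, an inflammatory and gluconeogenic factor, was at 64.7 and 29.3 FPKM in Huh7 and 113 and 37.7 FPKM in PLC cells (edgeR, log2 difference -0.59 ± 0.23, SE, adjusted p = 0.054). CEBPA made up 35.2% and 54.2% of the summed level of CEBPA, CEBPB, CEBPD and CEBPG in Huh7 cells at 5 and 25 mM and 1.74% and 3.04% in PLC cells. The sums were 194 and 140 FPKM in Huh7 and 203 and 99.3 FPKM in PLC cells.

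HNF4A and NR5A2, nuclear receptors at the centre of the hepatocyte programme and of bile acid and cholesterol handling, were at similar levels in the lines and did not pass the test. HNF4A, at chr20:44355700-44434596, had 4550 and 6867 reads in Huh7 and 7785 and 4535 reads in PLC cells. This was 29.0 and 31.1 against 35.0 and 38.5 FPKM, with both PLC libraries above both Huh7 libraries by a narrow margin. The log2 difference was -0.30 ± 0.20 (SE, edgeR, adjusted p = 0.263). The count covers the whole gene, so transcripts from the distal and the proximal start shown above cannot be told apart. NR5A2, at chr1:200027614-200177420, had 2050 and 2891 reads in Huh7 and 4075 and 2101 reads in PLC cells, or 12.7 and 12.7 against 17.8 and 17.4 FPKM, again without overlap. Its log2 difference was -0.47 ± 0.22 (SE, edgeR, adjusted p = 0.0972, unadjusted p = 0.0482). With 1 library and the glucose block left out, it ran from -0.58 to -0.39.

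HNF4G, the close relative of HNF4A, was lower in Huh7 cells. It was at 5.68 and 5.36 FPKM in Huh7 and 10.8 and 12.4 FPKM in PLC cells (edgeR, log2 difference -1.07 ± 0.25, SE, adjusted p = 0.00322). HNF4A made up 83.6% and 85.3% of the summed HNF4A and HNF4G level in Huh7 and 76.5% and 75.6% in PLC cells.

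ONECUT1, a factor of early liver and bile duct development, differed between lines at 25 mM more than at 5 mM. It was counted 4747 and 6572 times in Huh7 and 6168 and 2258 times in PLC. This was 36.3 and 35.8 FPKM against 33.3 and 23.0 FPKM, so the PLC library at 25 mM was the low one. The log2 difference was 0.37 ± 0.22 (SE, edgeR, adjusted p = 0.198), and 0.34 without the glucose block (edgeR, adjusted p = 0.344). With the PLC library at 5 mM left out as well it was 0.70, and with that at 25 mM left out it was 0.02. Its relative ONECUT2 was higher in Huh7, at 30.4 and 23.4 FPKM against 15.8 and 16.1 FPKM (edgeR, log2 difference 0.74 ± 0.20, SE, adjusted p = 0.00961).

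PROX1, a homeobox factor needed for hepatocyte migration in the embryo and for lymphatic vessels, was higher in Huh7 cells. It had 8049 and 11535 reads in Huh7 and 4701 and 2816 reads in PLC cells, or 42.1 and 42.9 FPKM against 17.4 and 19.6 FPKM. The lines did not overlap and the 2 libraries of each line lay close together. The log2 difference was 1.20 ± 0.20 (SE, edgeR, adjusted p = 0.000368), and it lay between 1.17 and 1.24 over 10 alternatives. PROX1, at chr1:213983181-214041510, shares 171 exon bases with the antisense gene PROX1-AS1, which had 128 to 404 reads, and whether reads were assigned by strand is not given in the sources used here.

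The thresholds were those of the screen in the study, a level above 0.5 FPKM with a ratio above 1.5 or below 0.67. With them, and with the choices made here that FPKM passes in at least 1 of 2 libraries and that 0.1 is added before the ratio, the lines were also compared at each concentration without a test. At 5 mM 5 of 8 members were higher in Huh7 (FOXA1, FOXA2, FOXA3, CEBPA and PROX1), where 35.7% of genes were higher and 31.1% lower. At 25 mM 4 of 8 were higher (FOXA2, CEBPA, ONECUT1 and PROX1), where 32.0% were higher and 33.0% lower. Among protein-coding genes 30.3% were higher and 30.6% lower at 5 mM, and 27.4% and 30.5% at 25 mM. CEBPA was 18.8 times as high in Huh7 at 5 mM (95% interval 17.1 to 21.9) and 24.4 times at 25 mM (21.1 to 30.2). PROX1 was 2.42 times (2.34 to 2.51) and 2.18 times (2.10 to 2.28) as high. FOXA1 went from 2.19 (2.08 to 2.32) at 5 mM to 1.17 (1.11 to 1.23) at 25 mM, and ONECUT1 from 1.09 (1.05 to 1.13) to 1.55 (1.48 to 1.63). FOXA3 went from 2.64 (2.39 to 2.96) to 1.43 (1.29 to 1.60), and at 25 mM it passed 1.5 with TMM scaling, at 1.51. Just outside the thresholds were NR5A2 at 0.714 (0.675 to 0.752) and 0.736 (0.694 to 0.777).

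In Huh7 cells no member passed the ratio thresholds between 25 and 5 mM. Over all genes 14.1% were higher and 13.7% lower at 25 mM in this line, and among protein-coding genes 5.91% and 5.71%. The 8 ratios ran from 0.874 to 1.11. CEBPA was at 1.11 (1.06 to 1.15) and HNF4A at 1.07 (1.03 to 1.11), and FOXA3 at 0.874 (0.804 to 0.951) was the lowest. FOXA1 (0.989), FOXA2 (0.960), ONECUT1 (0.984), NR5A2 (interval 0.947 to 1.06) and PROX1 (1.02) had counting intervals that included 1. The median log2 ratio of the members was -0.01, against 0.04 for all genes.

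In PLC cells FOXA1 and FOXA3 were past the upper threshold at 25 mM. Over all genes 26.2% were higher and 17.0% lower at 25 mM in this line, 5709 and 3700 genes, and with TMM scaling, which shifts the log2 ratio of FPKM in PLC cells by -0.16 before 0.1 is added, the split was 4530 and 4884. Among protein-coding genes, scaled by library totals, 18.8% were higher and 11.5% lower. FOXA1 was at 1.85 (1.75 to 1.98) and stayed past the threshold with TMM scaling at 1.66. FOXA3 was at 1.62 (1.43 to 1.84) and at 1.44 with TMM scaling, which is inside the threshold. ONECUT1 was at 0.692 (0.658 to 0.725), just inside the lower threshold, and at 0.617 with TMM scaling, past it. PROX1 was at 1.13 (1.08 to 1.18) and HNF4A at 1.10 (1.06 to 1.14), and with TMM scaling they were at 1.01 and 0.981, so the direction of HNF4A turned. NR5A2 was at 0.973 (0.922 to 1.03) and CEBPA at 0.856 (0.685 to 1.06). FOXA2, at 4 and 0 reads, gives no ratio. The median log2 ratio of the 7 members above 0.5 FPKM was 0.14, against 0.11 for all genes.

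**Figure D3:**
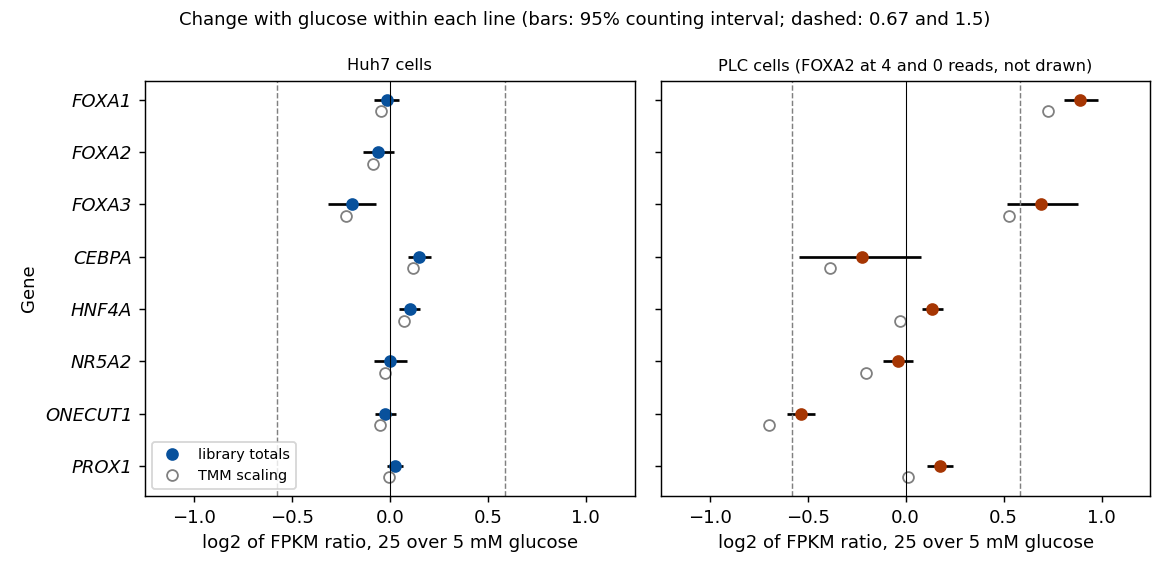
Log2 ratio of FPKM at 25 over 5 mM glucose (x) of each transcription factor (y) in Huh7 (left) and PLC cells (right). Filled points are scaled by library totals with bars for the exact binomial 95% interval, open points use TMM scaling, and dashed lines mark 0.67 and 1.5. The Huh7 ratios lie between 0.874 and 1.11, while in PLC cells FOXA1 is at 1.85, FOXA3 at 1.62 and ONECUT1 at 0.692.

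The change with glucose shared by the lines was not detected for any member. In the edgeR fit with the line as a block, 0 of 8 members passed and 0 had an unadjusted p under 0.05. DESeq2 and limma-voom also called 0, and over all genes edgeR called 0.0646% higher and 0.314% lower at 25 mM. The log2 changes ran from -0.36 for ONECUT1 (adjusted p = 0.766) to 0.36 for FOXA1 (adjusted p = 0.808). The member values of both lines at each concentration give no test of whether glucose acts differently in the lines.

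Among the paralogs, 2 passed the shared glucose test, in which 0.0646% of all genes tested were called higher and 0.314% lower. This test too has 1 residual degree of freedom and rests on the 2 lines, not on replicate cultures. CEBPB was lower at 25 mM in both lines, at ratios of 0.454 in Huh7 and 0.335 in PLC cells (edgeR, log2 change -1.44 ± 0.23, SE, adjusted p = 0.0192). CEBPG was also lower, at ratios of 0.567 and 0.352 (edgeR, log2 change -1.24 ± 0.24, SE, adjusted p = 0.0463). CEBPB and CEBPG were the 2 of 7 paralogs tested that were called lower, and none was called higher. The difference from CEBPA was not tested.

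Of 13 other factors of the hepatocyte network, 9 were called higher and 2 lower in Huh7 cells, with a median log2 difference of 1.24. Over all genes tested 21.8% were called higher and 21.1% lower, and the median was 0.03. NR1H4, the bile acid receptor, had 5397 and 9247 reads in Huh7 and 5 and 0 reads in PLC cells, and at 25 mM it was at least 1644-fold higher in Huh7 (edgeR, adjusted p = 2.93e-09). GATA6, an endoderm factor, had 566 and 901 reads against 0 and 0, at least 267-fold and 160-fold higher (edgeR, adjusted p = 6.48e-08). NR1H4 and GATA6 thus had the pattern of FOXA2 and LINC00261. NR2F1 (log2 difference 2.97), RXRA (1.84), CREB3L3 (1.54), NR1I3 (1.29), TBX3 (1.24), HHEX (1.16) and GATA4 (0.88) were the other 7 that were higher by edgeR. The 2 that were lower were NR0B2, the corepressor that bile acid receptor signalling induces (-3.20), and PPARA, the receptor for fatty acid breakdown (-1.41).

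None of the 13 network factors passed the shared glucose test of edgeR, and 3 had an unadjusted p under 0.05. By ratios, NR2F2, a nuclear receptor that shares sites with HNF4A, was past the threshold upward in both lines (1.57 in Huh7 and 1.91 in PLC cells), and NR1I3, a xenobiotic receptor, was past it downward (0.588 and 0.478). For NR1I3 the PLC value rests on 62 and 13 reads.

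Of the plasma protein genes listed as targets, 14 of 15 tested were called higher in Huh7 cells and none lower, beside the same 21.8% and 21.1% over all genes tested. Their median log2 difference was 1.81, and binding of the factors to these genes was not measured here. TTR, the thyroid hormone carrier, had 1839 and 2599 reads in Huh7 and 4 and 0 in PLC cells, and at 25 mM it was at least 462-fold higher (edgeR, adjusted p = 7.87e-09). AHSG, the fetuin gene, was at 284 and 232 FPKM in Huh7 and 0.373 and 0.253 FPKM in PLC cells (edgeR, adjusted p = 1.11e-09). Metabolic genes went both ways, with 3 higher and 6 lower of 11 tested and a median of -1.71. CPS1, the entry enzyme of the urea cycle, was at 1.22 and 1.45 FPKM in Huh7 and 392 and 358 FPKM in PLC cells (edgeR, adjusted p = 5.88e-10). PCK1, the gluconeogenic enzyme, had 0 reads in both Huh7 libraries and 145 and 380 reads in PLC cells, at least 34.1-fold and 237-fold lower in Huh7 (edgeR, adjusted p = 4.1e-07). No target passed the shared glucose test (0 of 15 and 0 of 11, with 4 and 3 at an unadjusted p under 0.05), and APOA1, of high-density lipoprotein, was past the ratio threshold in both lines, at 1.52 in Huh7 and 3.46 in PLC cells, where it had 26 and 52 reads. With TMM scaling or DESeq2 size factors the Huh7 ratio of APOA1 was 1.486 or 1.492, inside the threshold.

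**Figure D4:**
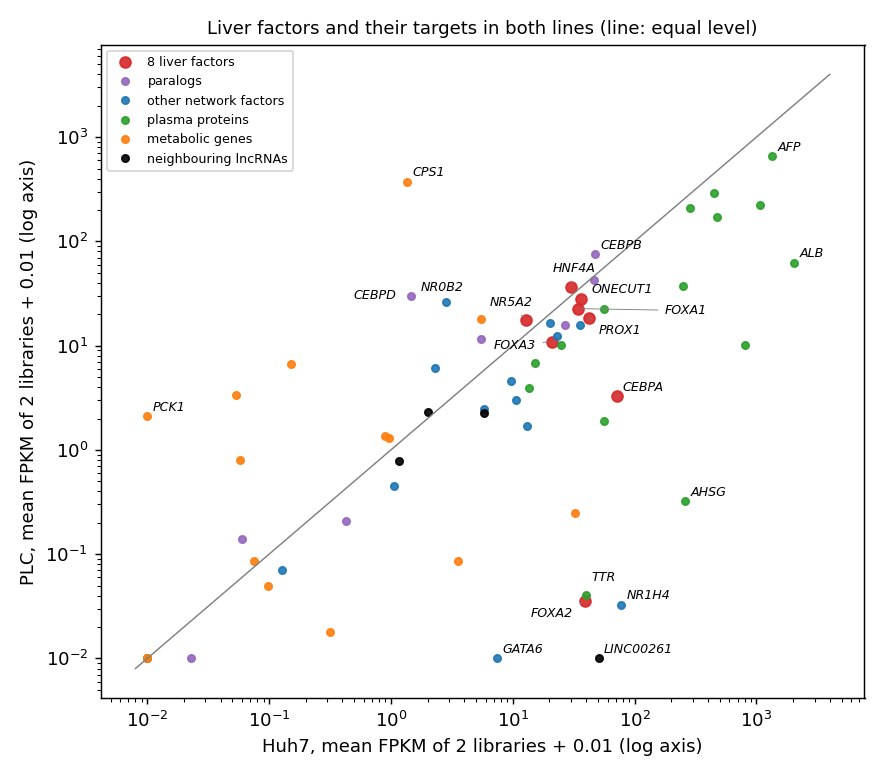
Mean FPKM of the 2 PLC libraries (y) against that of the 2 Huh7 libraries (x), each plus 0.01 on log axes, for the 8 liver factors and the lists of their paralogs, network factors, neighbouring non-coding RNAs and targets, with a line at equal level. HNF4A and ONECUT1 lie near the line, CEBPA lies below it, and FOXA2, TTR, NR1H4, GATA6 and LINC00261 lie at the bottom right, near 0 in PLC cells.

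Genes of other lineages also differed between the lines. Of 6 bile duct markers 5 were tested, and 3 were called higher and 2 lower in Huh7. Over all genes tested 21.8% were called higher and 21.1% lower, for this list and those below. The summed level of the 6 bile duct markers was 72.0 and 69.2 FPKM in Huh7 and 469 and 419 FPKM in PLC cells. SPP1 alone was 454 and 402 FPKM in PLC cells. KRT19 was at 30.1 and 23.9 FPKM in Huh7 and had 1 and 0 reads in PLC cells, and KRT7 had 0 to 5 reads in each library. The 6 stellate markers summed to 6.29 to 7.17 FPKM in Huh7 and 0.712 to 1.32 FPKM in PLC cells (4 higher and 1 lower in Huh7 of 5 tested). LUM alone was 6.31 and 5.40 FPKM in Huh7, and COL3A1 alone was 0.67 and 1.30 FPKM in PLC cells. COL1A1, COL1A2 and PDGFRB were below 0.5 FPKM in every library. The 5 endothelial markers summed to 2.45 to 2.61 and 0.239 to 0.418 FPKM (1 higher of 2 tested), and the 5 leukocyte markers to 33.2 to 35.0 and 3.59 to 10.9 FPKM (1 higher of 1 tested), nearly all of it LYZ. Of 6 gut and pancreas factors 2 were tested and CDX2, named after its values were seen, was higher in Huh7, with 193 and 479 reads against 55 and 69. Their part in the differences of the liver factors was not tested.

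Likeness of profile was measured over the 4 libraries against 38 other genes that had at least 20 reads in each. These came from the lists of members, paralogs, network factors, plasma protein genes and metabolic genes only. The measure was the largest gap between centred log2 values, and it is a description. PROX1 was closest to HHEX (0.10) and then GATA4 (0.23). FOXA1 was closest to FGA, a fibrinogen chain (0.14), and then to FOXA3 (0.24), and FOXA3 was closest to FOXA1 and then to APOH (0.28). HNF4A and NR5A2 were each other's closest gene (0.18). CEBPA was closest to ALB (0.65) and ONECUT1 to ONECUT2 (0.46), at wider gaps. FOXA2 had too few reads in PLC cells to be compared.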

How the data were processed

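Read counts per gene were deposited by the authors as whole numbers for the 4 libraries, without normalization. The submitters' processing notes name HISAT2, featureCounts and hg38. Versions, annotation release and strand setting are not given in the sources used here. The methods of the study name StringTie and FPKM for the screen of non-coding RNAs. Of 59657 rows, 5 rows of a broken ANK2 entry were left out. No column of other samples was present.

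FPKM was computed from the count, the gene length and the library total. The table agrees in position with GENCODE 44 for 7 of 8 members within 100 bases (HNF4A ends elsewhere). Ratios used FPKM + 0.1, and intervals were exact binomial at 95%. Counts were fitted with edgeR 4.0.16 (TMM, filterByExpr, line and glucose as terms, Benjamini-Hochberg, threshold 0.05), and DESeq2 1.42.0 and limma 3.58.1 were alternatives, in R 4.3.3. The fit was also run on simulated counts with the same scatter for every gene and no difference in glucose change between the lines. That setting differs from these data, so the run gives no measure of error here. Depth was 16049686 to 30279716 reads per library. Start regions were taken from RefSeq on GRCh38.p14 for 6 of 8 members, and FOXA2 and PROX1 were not matched.

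The members and gene lists were chosen with earlier results of these data known. Named are every member, every paralog, network gene and neighbouring non-coding RNA called by edgeR or past the ratios in both lines, the 4 targets with the largest called line difference and those past the ratios in both lines, ALB, AFP and SERPINA1. Some genes of the network list are not reported here.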

Additional observations from a re-analysis of the deposited data

Results flagged for a closer look

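FOXA3 was on opposite sides of 1 in the lines when 25 mM was compared with 5 mM glucose, with a ratio of 0.874 in Huh7 cells (95% counting interval 0.804 to 0.951) and of 1.62 in PLC cells (1.43 to 1.84). With 1 library for each line and concentration no test of this difference could be made.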

How the results depend on the processing

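The labels carry no replicate numbers, and the glucose fit pairs the concentrations only through the line as a block. The 9969 genes called between the lines became 6340 with at least 10 counts in every library, and 5249 to 11598 when 1 library was left out. The 5 members called became 3 to 6 when 1 library was left out: CEBPA, FOXA2 and PROX1 were called each time, and FOXA1 was also lost with DESeq2 (adjusted p = 0.0845) and without the glucose block (adjusted p = 0.131), in a range of 0.000865 to 0.359. Of 88 genes called for glucose by edgeR, the number was 526 without a filter, 27 with at least 10 counts, 194 by DESeq2 and 0 without the line as a block (52 at an unadjusted p under 0.05). In that last fit the glucose change of CEBPA was 0.0901 in place of -0.10, and neither passed the test. The 6068 genes past the ratio thresholds in Huh7 became 3092 with a pseudocount of 1, 3427 with both libraries over 0.5 FPKM, 11199 with no filter and 3066 at ratios of 2 and 0.5. The 9409 in PLC became 5982, 5917, 15409 and 5253, and at ratios of 2 and 0.5 the 2 members there became 0. Between lines, 15681 genes at 5 mM and 15491 at 25 mM became 8710 and 8531 with both libraries over 0.5 FPKM. The cause was not tested. FOXA2 drops out wherever both libraries must be expressed and a PLC library is among them, since PLC cells had 4 and 0 reads. In the Huh7 glucose ratio it was kept, at 0.960.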
